A study of Mus musculus with 7 samples.

Results

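The transcriptomes of mouse embryonic fibroblasts (MEFs) held at 0.1% oxygen (hypoxia) and of MEFs given 1 μM thapsigargin (ER stress), each for 10 hours, were compared directly with each other and not through the untreated control. They are 2 of 7 RNA-seq libraries. The other 5 were control MEFs, MEFs without glucose or without glutamine for 10 hours, and MEFs given 10 μM sodium arsenite (oxidative stress) or 100 mM NaCl (osmotic stress) for 3 hours. All were primary wild-type cells of embryonic days 13.5 to 14.4 at passages 3 to 7, taken from embryos without head and fetal liver, and the cells that stayed attached to the plate were collected. Each condition was 1 library, so no difference below could be set against a spread between replicates, no p-value is given, and every statement compares these libraries. Expression was in TPM, the abundance of transcripts per length as a share of a library, and differences were taken on the log2(TPM + 1) scale, on which low genes appear to change less than they do. A gene was kept when its TPM averaged 2 or more across the 7 libraries, without symbols starting with Gm, Mir, Snor or mt-T and without symbols containing -ps or -rs, which left 11558 of 49382 genes.

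When oxygen is scarce, prolyl hydroxylases that need it no longer mark hypoxia-inducible factors (HIF) for destruction, and HIF raises genes of glycolysis, lactate export, mitophagy and blood vessel growth through sites with the core ACGTG or GCGTG. Thapsigargin blocks the calcium pump of the endoplasmic reticulum (ER), which empties the ER of calcium and leaves secretory proteins misfolded. The unfolded protein response then acts through ATF6 and XBP1, which raise chaperones and the degradation machinery, and through PERK, whose phosphorylation of eIF2α favours translation of the transcription factor ATF4.

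The markers of each treatment separated the libraries. Bnip3, a mitophagy receptor and HIF target, had 797 TPM in hypoxia and 29.6 TPM in ER stress, with 26.7 TPM in control, 37.4 in glucose depletion, 22.7 in glutamine depletion, 29.8 in oxidative stress and 37.7 in osmotic stress. Hspa5, the main ER chaperone (BiP), had 1224 TPM in hypoxia and 12611 TPM in ER stress, with 1165 TPM in control, 1689 in glucose depletion, 943 in glutamine depletion, 784 in oxidative stress and 1034 in osmotic stress. In each case a single library stood apart from the other 6, by 4.71 log2 units for Bnip3 (26.1-fold on the TPM + 1 scale) and -3.36 for Hspa5 (10.3-fold) when hypoxia was compared with ER stress. Ndrg1, a stress-responsive gene known both as a HIF target and as an ER stress gene, had 149 TPM in hypoxia, 60.6 TPM in ER stress and 11.7 TPM in control, and 11.4 to 28.4 TPM in the other 4 stresses. It was thus above control in both libraries and 1.29 log2 units higher in hypoxia than in ER stress. In bulk libraries a smaller number of cells of a type and less RNA per cell cannot be told apart. Values in brackets after TPM are the difference of hypoxia minus ER stress on the log2(TPM + 1) scale, so that negative values mark genes higher in ER stress, and a pair of TPM without further words gives hypoxia first and ER stress second.

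The 300 bases around the start site of these genes (250 before and 50 after, RefSeq, GRCm38.p6, gene strand) show the sequences that the pathways are known to use. Bnip3 is shown for HIF, with the core ACGTG or GCGTG in capitals on either strand. Hspa5 and Derl3, the gene with the largest difference towards ER stress, are shown for the ER stress response element (ERSE), CCAAT and CCACG 9 bases apart, with these letters in capitals (in Derl3 on the opposite strand). Chac1, a target of ATF4, is shown for the CARE motif TGATGNAA on the opposite strand, and Stc2, raised in both libraries, for the HIF core. The windows are chr7:138909457-138909756 (minus strand) for Bnip3, chr2:34771840-34772139 (plus) for Hspa5, chr10:75893148-75893447 (plus) for Derl3, chr2:119350992-119351291 (plus) for Chac1 and chr11:31370012-31370311 (minus) for Stc2.
Bnip3: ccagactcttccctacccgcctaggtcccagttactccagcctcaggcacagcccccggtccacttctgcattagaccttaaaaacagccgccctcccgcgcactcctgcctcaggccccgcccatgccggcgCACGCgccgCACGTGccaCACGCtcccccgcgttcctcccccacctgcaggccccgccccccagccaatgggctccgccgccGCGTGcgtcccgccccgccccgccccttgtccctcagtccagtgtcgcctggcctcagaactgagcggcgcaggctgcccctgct
Hspa5: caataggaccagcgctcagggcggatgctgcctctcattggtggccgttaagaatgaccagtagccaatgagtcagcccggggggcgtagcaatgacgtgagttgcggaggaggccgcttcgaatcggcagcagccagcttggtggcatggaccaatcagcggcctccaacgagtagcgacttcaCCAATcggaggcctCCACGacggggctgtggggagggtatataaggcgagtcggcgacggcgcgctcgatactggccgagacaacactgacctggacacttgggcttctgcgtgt
Derl3: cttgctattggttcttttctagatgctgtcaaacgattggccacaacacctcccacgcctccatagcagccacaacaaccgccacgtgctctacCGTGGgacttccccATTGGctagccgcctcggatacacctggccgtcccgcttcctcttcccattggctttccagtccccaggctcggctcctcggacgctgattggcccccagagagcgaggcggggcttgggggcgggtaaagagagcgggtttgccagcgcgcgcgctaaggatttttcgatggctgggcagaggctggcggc
Chac1: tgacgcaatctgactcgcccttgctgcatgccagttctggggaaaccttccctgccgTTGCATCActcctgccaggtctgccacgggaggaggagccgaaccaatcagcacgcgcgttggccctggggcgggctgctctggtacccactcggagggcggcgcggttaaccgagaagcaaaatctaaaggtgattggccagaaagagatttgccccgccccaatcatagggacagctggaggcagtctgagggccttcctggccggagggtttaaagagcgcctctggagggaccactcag
Stc2: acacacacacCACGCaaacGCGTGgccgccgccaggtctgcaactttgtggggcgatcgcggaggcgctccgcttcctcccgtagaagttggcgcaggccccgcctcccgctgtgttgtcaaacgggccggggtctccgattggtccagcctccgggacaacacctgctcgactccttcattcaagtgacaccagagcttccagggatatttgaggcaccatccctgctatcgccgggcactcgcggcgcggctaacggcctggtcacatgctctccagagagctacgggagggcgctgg

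Bnip3 held the HIF core 5 times, beginning 117, 108, 107, 99 and 35 bases before the start site, where the matches at 108 and 107 overlap as a palindrome. Hspa5 held an ERSE that began 65 bases before its start site, Derl3 an ERSE from 156 bases before, and Chac1 a CARE motif from 193 bases before. Stc2 held the HIF core 2 times. The HIF core was also in the windows of Hspa5 (2 times), Derl3 (3 times) and Chac1 (1 time), where it is left in lower case. A match of letters is a description and not a bound site. Of the 11558 genes, 9179 could be matched to a window, on 9147 RefSeq genes. A gene was counted when any of its windows held the motif. Shares of all windows are per single window over 27025 RefSeq genes, kept or not, so the 2 kinds of share are unlike measures. The HIF core was in the windows of 69.5% of the 9147 genes and in 43.8% of all 32851 windows. It was in 63.9% of the 923 genes more than 2-fold higher in hypoxia and 73.2% of the 880 more than 2-fold higher in ER stress. It was thus present in most genes of both sides. Of the 33 genes with a window that were more than 2-fold above control in both libraries, 63.6% held it. The core ACGTG also lies within the UPRE core TGACGTG, which XBP1 is known to bind and which was in 3.38% of the genes and 2.01% of all windows, in 1.63% of those higher in hypoxia and in 5.00% of those higher in ER stress.

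The ERSE was rare. It was in the windows of 17 of the 9147 genes (0.186%) and in 0.119% of all windows. Among these 17 genes, 12 (70.6%) were more than 2-fold higher in ER stress and 0 in hypoxia, beside 9.89% and 10.8% over all genes. Their median difference was -1.60 log2 units against -0.06 over all genes kept. The 12 were 1.36% of the 880 genes with a window that were more than 2-fold higher in ER stress. Most genes of that side thus lacked an ERSE. The ER chaperones and foldases, a list of 28 kept genes, held it in 8 of the 24 members that had a window (33.3%). The sites of these 8 genes, of which Hsp90b1 has a pair, and of the degradation genes Derl3 and Syvn1 are shown in the direction of the motif, with CCAAT and CCACG in capitals.
Hspa5: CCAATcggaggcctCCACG
Hsp90b1: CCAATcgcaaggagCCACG
Hsp90b1: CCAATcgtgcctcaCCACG
Calr: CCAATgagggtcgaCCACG
Canx: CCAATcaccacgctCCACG
Pdia6: CCAATgaaaggcggCCACG
Dnajc3: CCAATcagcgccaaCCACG
Creld2: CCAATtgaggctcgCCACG
Ero1lb: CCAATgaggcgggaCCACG
Derl3: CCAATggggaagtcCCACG
Syvn1: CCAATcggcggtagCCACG

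The 9 bases between the capitals differ among the sites. The other 3 genes with an ERSE that were more than 2-fold higher in ER stress were Alg12, the zinc finger gene Zfp57 (14.1 TPM in hypoxia, 88.1 TPM in ER stress, -2.56) and Xlr3b (1.98 and 7.83 TPM, -1.57). The site of Creld2, an ER-resident protein secreted under stress, lies at chr15:88819520-88819538 between divergent genes, and the same bases are the site of Alg12, a mannosyltransferase of N-glycan assembly. Creld2 had 94.0 TPM in hypoxia and 1193 TPM in ER stress (-3.65 log2 units), and Alg12 13.7 and 38.5 TPM (-1.43). The 5 genes with an ERSE that were not more than 2-fold apart were Canx (-0.93), Hnrnpa3 (-0.27), Pan2 (-0.16), Adcy3 (0.44) and Spats2l (0.44). ERSE-II, in which ATTGG and CCACG are 1 base apart, was in 0.0365% of all windows and in 8 of the genes (0.0875%). Of these 8, 4 were more than 2-fold higher in ER stress, which is 0.455% of the 880 genes of that side. Among the 4 was Herpud1 with the site at chr8:94386377-94386387 (113 TPM in hypoxia, 1698 TPM in ER stress).
Herpud1: ATTGGgCCACG

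Over the 11558 genes, 1246 (10.8%) were more than 2-fold higher in hypoxia and 1143 (9.89%) more than 2-fold higher in ER stress, and 9169 were within 2-fold. The counts of every gene list below are read beside these shares. By 1.5-fold the counts were 2431 and 2526, with more genes on the ER stress side, by 4-fold 245 and 154, by 8-fold 66 and 41, and by 16-fold 18 and 7. ER stress also had more genes with a pseudocount of 5 TPM (685 and 763) and with a mean of at least 10 TPM (771 and 839), so which side was larger depended on these settings. Of the 11175 protein-coding genes, 1177 were higher in hypoxia and 1084 in ER stress, 20.2% together, against 33.4% of the 383 genes of other types or without a match in the annotation. The median difference was -0.06 log2 units. TPM have the same total in each library, so a shift common to all genes could not be seen. Mitochondrially encoded transcripts made up 6.50% of TPM in hypoxia and 5.09% in ER stress, within the 5.09% to 9.25% over the 7 libraries, and 20154 and 20202 genes were above 0 TPM.

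**Figure D1:**
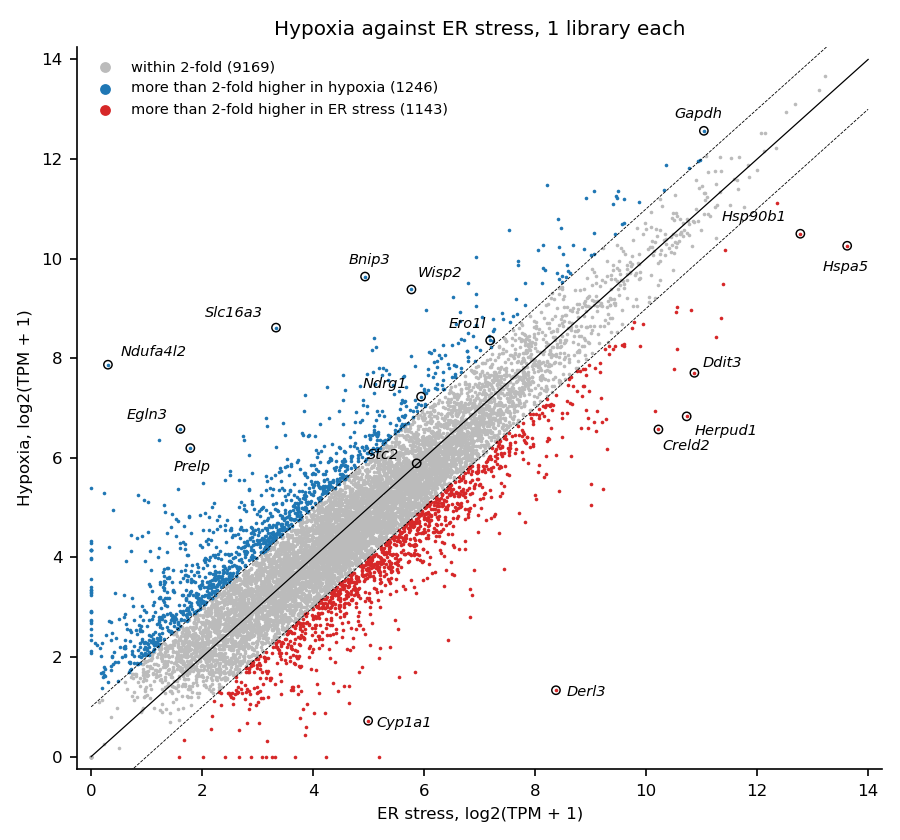
Each point is 1 of the 11558 genes, with its log2(TPM + 1) in ER stress on the x axis and in hypoxia on the y axis. The solid line marks equal values and the dashed lines 2-fold. Bnip3, Slc16a3 and Ndufa4l2 lie far above the lines, Hspa5, Herpud1 and Derl3 far below, and Stc2 on the line of equal values.

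Both libraries were placed among the other 5, and the 2 sides differed in the minority of genes that lay more than 2-fold outside. Of the 1246 genes higher in hypoxia, hypoxia stood more than 2-fold above all other 5 libraries in 98 (7.87%), ER stress stood more than 2-fold below all other 5 in 419 (33.6%), both held in 5, and neither held in 724. Of the 1143 genes higher in ER stress, ER stress stood more than 2-fold above the other 5 in 363 (31.8%) and hypoxia stood more than 2-fold below them in 5 (0.437%). Both held in 0 and neither in 775 (67.8%), so on each side neither was the most common place (58.1% on the hypoxia side). Most of the genes that lay more than 2-fold outside the other libraries were therefore outside by their value in ER stress, in either direction. The 5 genes with hypoxia above and ER stress below all others were Ndufa4l2, Ccng2 (an atypical cyclin), Nrn1 (neuritin), Rgcc and 3632451O06Rik. The comparisons with control, which share the control library, gave the same order of size: hypoxia was more than 2-fold above control in 240 genes (2.08%) and below in 123 (1.06%), and ER stress above in 843 (7.29%) and below in 1156 (10.0%).

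**Figure D2:**
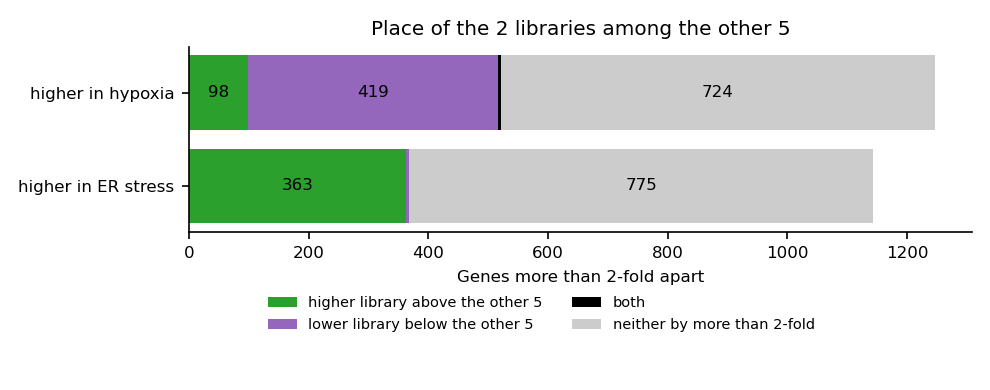
Bars count the genes more than 2-fold higher in hypoxia (1246) and in ER stress (1143), divided by whether the higher library lay more than 2-fold above all other 5 libraries, the lower library more than 2-fold below all of them, both, or neither. On the hypoxia side 419 genes had a low value in ER stress, and on the ER stress side 363 had a high value in ER stress.

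The largest difference towards hypoxia was that of Ndufa4l2, a relative of a respiratory chain subunit and a known HIF target, on chromosome 10. It had 233 TPM in hypoxia and 0.233 TPM in ER stress, with 2.99 TPM in control and 2.72 to 9.05 TPM in the other 4 stresses (7.57 log2 units). ER stress was the lowest of the 7 libraries and hypoxia the highest. Slc16a3, the lactate exporter MCT4, had 391 TPM in hypoxia, 9.06 TPM in ER stress and 13.9 TPM in control (5.29 between hypoxia and ER stress). Ankrd37 had 81.3 and 1.32 TPM (5.15), Mgarp, a mitochondrial protein, 38.1 and 0.169 TPM (5.06), and Egln3, an oxygen-sensing prolyl hydroxylase, 94.7 and 2.05 TPM (4.97). These genes, like Bnip3, had hypoxia above all other libraries. Cox4i2, the subunit of cytochrome c oxidase used at low oxygen, had 29.8 and 0.315 TPM (4.55), and Selenbp1 36.9 and 0.806 TPM (4.39).

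Prelp, a proteoglycan of the extracellular matrix, was also among the 12 largest differences, with another order of the libraries. It had 72.3 TPM in hypoxia, 48.7 TPM in control, 37.1 to 44.2 TPM in the other 4 stresses and 2.45 TPM in ER stress (4.41), so that the library apart was ER stress. The remaining 3 of the 12 were short or unnamed features with several libraries listed at 0. Trbj2-3 and Traj23, joining segments of T cell receptor genes, had 41.3 and 18.6 TPM in hypoxia and were listed at 0 in ER stress. AC166358.4 had 19.1 TPM in hypoxia, 19.0 TPM in glucose depletion and was listed at 0 in ER stress.

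The largest difference towards ER stress was that of Derl3, a derlin of the ER membrane that takes part in the export of misfolded proteins for degradation, on chromosome 10. It had 1.52 TPM in hypoxia and 331 TPM in ER stress, with 1.65 TPM in control and 0.300 to 3.64 TPM in the other 4 stresses (-7.04 log2 units, 132-fold). Dnajb9, a co-chaperone of Hspa5, had 32.1 TPM in hypoxia and 512 TPM in ER stress (-3.95), Herpud1, a degradation factor of the ER membrane, 113 and 1698 TPM (-3.90), and Sdf2l1, another ER resident, 40.4 and 598 TPM (-3.85). In these genes hypoxia lay close to control, which had 31.4, 102 and 31.1 TPM. Atf3, a transcription factor downstream of ATF4, had 5.95 TPM in hypoxia and 112 TPM in ER stress (-4.02), and it was also high in oxidative stress at 88.3 TPM. Outside the ER pathways, the drug-metabolising enzyme Cyp1a1 had 0.648 and 30.8 TPM (-4.27), Fam174b 2.27 and 56.2 TPM (-4.13), the sugar transporter Slc2a6 4.10 and 85.7 TPM (-4.09), Hid1 2.05 and 45.8 TPM (-3.94) and 5430416N02Rik 12.6 and 173 TPM (-3.68). Rnu73b, with 35.2 TPM in ER stress, and a feature with the symbol Snhg7 that the annotation gives as a small nucleolar RNA, with 17.8 TPM, were listed at 0 in hypoxia and also in glucose depletion, and Rnu73b in oxidative stress.

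**Figure D3:**
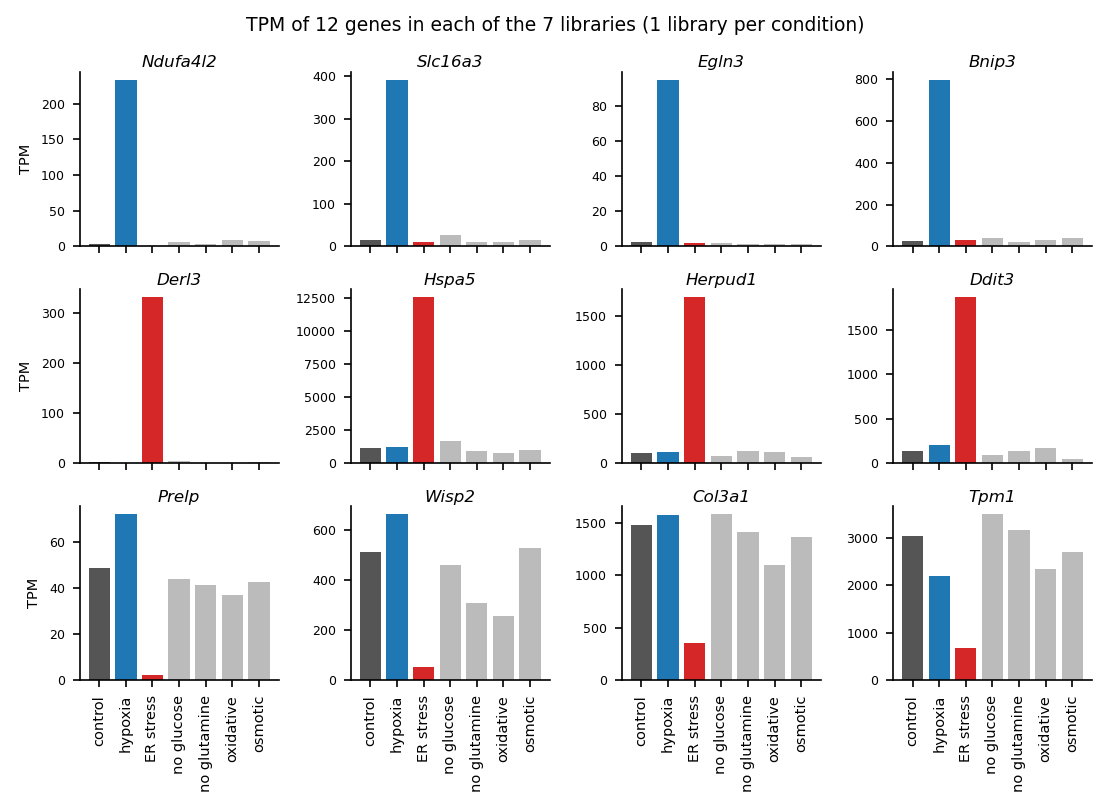
Bars give the TPM of 12 genes in each of the 7 libraries, with the y axis starting at 0 and its own scale in each panel. In the top row hypoxia (blue) stands apart, in the middle row ER stress (red) stands apart upwards, and in the bottom row ER stress is the lowest library.

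A list of glucose uptake, glycolysis and glycogen genes separated the libraries in most of its members. It does not hold the sugar transporter Slc2a6, given above, which was higher in ER stress (-4.09). Of 25 genes, all kept, 22 were more than 2-fold higher in hypoxia and 0 in ER stress, with a median of 2.10 log2 units against -0.06 over all genes. Summed over the list, 22908 TPM (2.29% of the library) were found in hypoxia, 6331 TPM (0.633%) in ER stress and 7318 TPM in control. Pfkl, the liver form of phosphofructokinase, had 287 and 32.5 TPM (3.10), Tpi1, triose phosphate isomerase, 1530 and 184 TPM (3.05), and Ldha, which makes lactate, 2381 and 485 TPM (2.29). Pdk1, a kinase that inhibits pyruvate dehydrogenase, had 152 and 13.4 TPM (3.41), and Aldoc, the brain form of aldolase, 20.1 and 0.773 TPM (3.57). The regulatory subunit Ppp1r3c of glycogen metabolism had 16.6 and 0.646 TPM (3.42). In 20 of the 25 genes hypoxia was more than 2-fold above all other 5 libraries, so the distance to ER stress was largely a distance to every library. The 3 genes within 2-fold were Pfkfb4 (0.73), Eno2 (0.53) and Hk2 (0.19), and Hk2, a hexokinase, is described with the genes raised in both.

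The regulators of HIF were divided. Of 16 kept regulators, 8 were more than 2-fold higher in hypoxia and 0 in ER stress (median 0.98). Of the negative regulators of HIF, Egln1 had 170 and 18.0 TPM (3.17), Egln3 is given above, and Vhl, which targets HIF for destruction, had 50.4 and 21.3 TPM (1.21). Within 2-fold were the hydroxylases Egln2 (0.32) and Hif1an (-0.08) and the competitor of HIF for its coactivator, Cited2, with 66.0 and 123 TPM (-0.89). Of 5 oxygen-dependent histone demethylases, Kdm3a (1.37) and Kdm4b (1.35) were more than 2-fold higher in hypoxia and Kdm6b (0.75), Kdm5b (0.53) and Kdm4c (-0.18) were within 2-fold. The MYC antagonist Mxi1 (2.69) and the repressor Bhlhe40 (1.88) were also more than 2-fold higher in hypoxia. The subunits of the factor were not: Hif1a had 108 and 85.5 TPM (0.33), Arnt 38.4 and 40.9 TPM (-0.09). Epas1 and Hif3a were below the filter.

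Of 23 other known HIF targets, 18 were more than 2-fold higher in hypoxia, with a median of 2.59. Besides Bnip3, Ndufa4l2 and Cox4i2 they include Car9, the carbonic anhydrase of the cell surface, with 34.8 and 0.935 TPM (4.21), the hormone Stc1 with 32.3 and 1.49 TPM (3.74), the adenylate kinase Ak4 with 110 and 7.90 TPM (3.64), Fam162a with 1046 and 121 TPM (3.10) and Higd1a with 729 and 109 TPM (2.73). Nfil3, a bZIP repressor, went the other way, with 37.0 TPM in hypoxia, 103 TPM in ER stress, 19.1 TPM in control and 22.4 to 37.5 TPM in the other stresses (-1.46). Vegfa, the vascular growth factor, was within 2-fold (0.69), as were Angptl4 (0.73), Pnp (0.50) and the transferrin receptor Tfrc (-0.33).

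The folding machinery of the ER was the counterpart. Over all genes, 9.89% were more than 2-fold higher in ER stress and 10.8% in hypoxia. Of 28 ER chaperones and foldases, all kept, 17 were more than 2-fold higher in ER stress and 1 in hypoxia (median -1.24). Together they had 44386 TPM in ER stress, 4.44% of the library, against 12312 TPM in hypoxia and 11105 TPM in control. Hspa5 alone accounted for the largest part with 12611 TPM, followed by Hsp90b1, the ER form of HSP90, with 1447 TPM in hypoxia and 7025 TPM in ER stress (-2.28), and the calcium-binding chaperone Calr with 2230 and 5242 TPM (-1.23). The nucleotide exchange factor Hyou1 had 122 and 1140 TPM (-3.22), and the disulfide isomerase Pdia4 344 and 2438 TPM (-2.82). Hypoxia and control were close over the list, with a median difference of 0.03, so that most members were near the level of untreated cells in hypoxia. The exception was Ero1l, the oxidase that passes electrons from disulfide isomerases to oxygen, with 327 TPM in hypoxia, 145 TPM in ER stress and 37.2 TPM in control (1.16). Its relative Ero1lb had the opposite order, with 4.91 TPM in hypoxia, 44.9 TPM in ER stress and 4.94 TPM in control (-2.96).

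Other foldases of the secretory pathway were within 2-fold. In hypoxia and ER stress Txndc5 had 425 and 389 TPM (0.13), Pdia5 128 and 137 TPM (-0.10) and P4hb, which is both a disulfide isomerase and a subunit of collagen prolyl hydroxylase, 1853 and 2268 TPM (-0.29). Fkbp7 was the only other member with a difference near 2-fold towards hypoxia, with 93.2 and 46.8 TPM (0.98).

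Degradation, translocation and export gave the same direction. Of 33 kept genes, 15 were more than 2-fold higher in ER stress and 0 in hypoxia (median -0.96). Of the ubiquitin ligase complex, Syvn1 had 35.2 TPM in hypoxia and 258 TPM in ER stress (-2.84) and its partner Sel1l 95.4 and 497 TPM (-2.37), and the selenoprotein Selenos 110 and 493 TPM (-2.15). Sec23b of the export coat had 44.3 and 166 TPM (-1.88), whereas Sec13 (-0.20) and Sec31a (-0.26) of the same coat were within 2-fold. Of 24 kept genes of N-glycosylation and the hexosamine pathway, 8 were more than 2-fold higher in ER stress and 0 in hypoxia (median -0.83). Gnpnat1, an enzyme of UDP-GlcNAc synthesis, had 21.9 and 125 TPM (-2.46) and Gfpt1, its entry enzyme, 37.5 and 113 TPM (-1.57).

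Beside the shares of 9.89% and 10.8% over all genes, the sensors and transcription factors of the unfolded protein response leaned to ER stress. Among 11 of them, 4 were more than 2-fold higher in ER stress and 0 in hypoxia (median -0.89). These were Wfs1 with 17.1 and 98.2 TPM (-2.45), Atf6 with 17.9 and 91.2 TPM (-2.28), Ern1, which encodes IRE1, with 6.02 and 21.4 TPM (-1.68), and Xbp1 with 116 and 239 TPM (-1.04). TPM summed per gene do not tell spliced from unspliced Xbp1. Eif2ak3, which encodes PERK, had 25.4 and 47.9 TPM (-0.89).

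The calcium pump that thapsigargin blocks was itself apart. Atp2a2 (SERCA2) had 121 TPM in hypoxia and 555 TPM in ER stress, with 149 TPM in control and 153 to 173 TPM in the other 4 stresses (-2.18). Of 18 kept genes of ER calcium handling, 3 were more than 2-fold higher in ER stress, namely Atp2a2, Saraf (-1.29) and Orai2 (-1.01). In hypoxia 1 was higher, the ER calcium sensor Stim2 with 22.1 and 6.51 TPM (1.62). Over all genes the shares were 9.89% and 10.8%, so in a list of this size both counts were near them. The median was 0.19, so the list as such did not lean to ER stress.

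**Figure D4:**
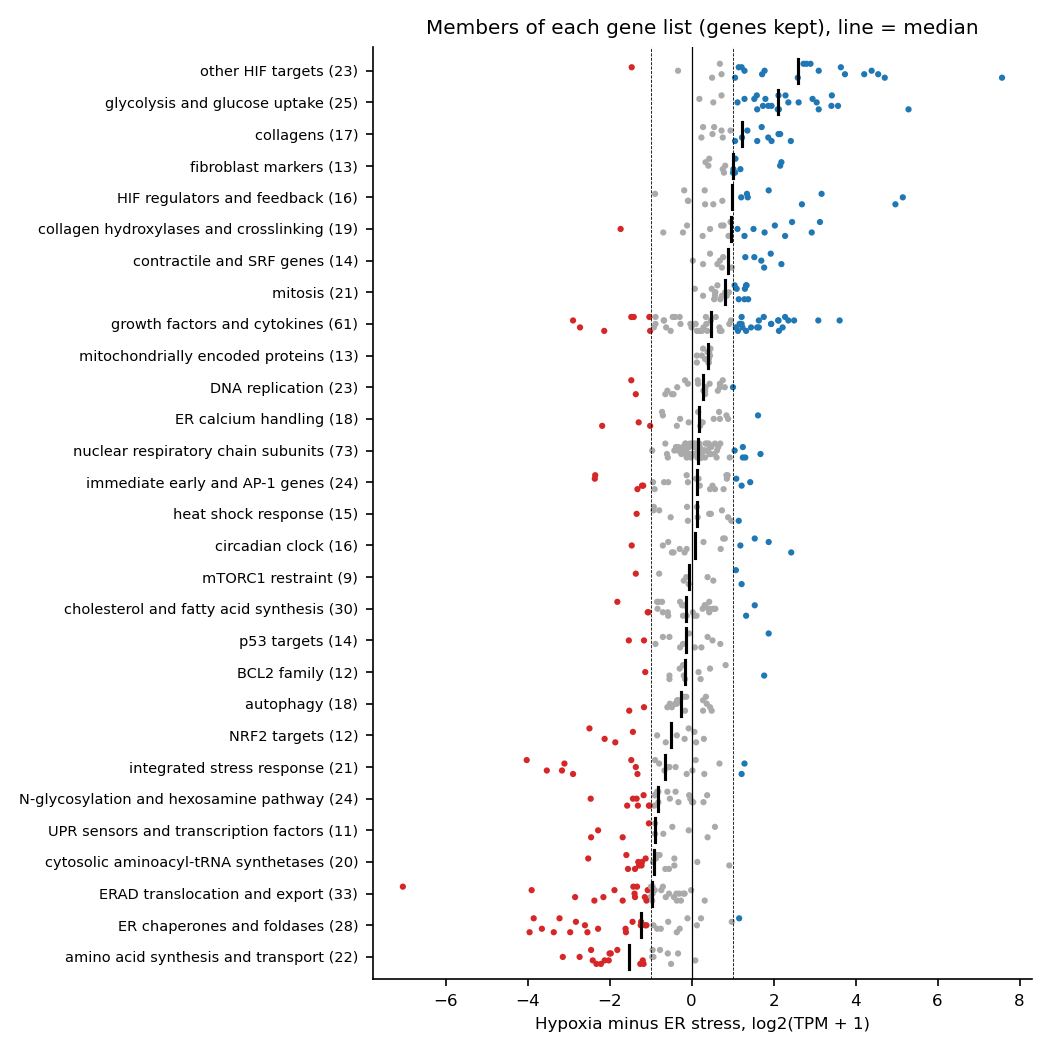
Each point is a kept member of a gene list, placed by its log2 difference between hypoxia and ER stress (positive = higher in hypoxia). Colours mark differences of more than 2-fold, black lines the medians, and numbers in brackets the members kept. HIF targets and glycolysis have medians above 2, and amino acid genes and ER chaperones below -1.

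The integrated stress response, which PERK shares with other kinases, had more members higher in ER stress. Of 21 genes, 8 were more than 2-fold higher in ER stress and 2 in hypoxia (median -0.66), beside 9.89% and 10.8% over all genes. Ddit3 (CHOP), a transcription factor of prolonged ER stress, had 1870 TPM in ER stress, 208 TPM in hypoxia and 136 TPM in control (-3.16). Ppp1r15a (GADD34), the phosphatase subunit that reverses eIF2α phosphorylation, had 514, 43.6 and 38.8 TPM in the same order (-3.53), and Chac1, which breaks down glutathione, 224, 25.3 and 26.2 TPM (-3.10). The hormone Fgf21 had 1.78 TPM in hypoxia and 19.6 TPM in ER stress (-2.89), and Atf4 itself 309 and 773 TPM (-1.32). On the other side were Vldlr, a lipoprotein receptor, with 85.9 TPM in hypoxia and 34.5 TPM in ER stress (1.29), and Ddit4, an inhibitor of mTORC1, with 123 and 52.5 TPM (1.22). Ddit4 is also counted among the other known HIF targets above.

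The largest median towards ER stress was that of amino acid synthesis and transport. Of 22 kept genes, 14 were more than 2-fold higher in ER stress and 0 in hypoxia (median -1.53), and in 14 of the 22 ER stress was more than 2-fold above all other 5 libraries. Cth, which makes cysteine, had 12.5 and 118 TPM (-3.14). The transporter chain Slc3a2 had 218 and 1454 TPM (-2.73), its partner Slc7a5 65.7 and 332 TPM (-2.32), and the glycine transporter Slc6a9 28.2 and 155 TPM (-2.41). The member nearest to equal was Mthfd1l (0.09), with 56.6 and 53.3 TPM. Of 20 cytosolic aminoacyl-tRNA synthetases, 9 were more than 2-fold higher in ER stress and 0 in hypoxia (median -0.91), led by Wars with 50 and 292 TPM (-2.52). Mars went towards hypoxia (0.92), with 82.9 and 43.5 TPM.

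The CARE motif, known from ATF4 targets, was counted in these lists beside all genes. It was in the windows of 2.59% of the 9147 genes and in 3.97% of all windows, and in those of 2.71% of the genes higher in hypoxia and 4.55% of those higher in ER stress. It was in 6 of 19 genes of the integrated stress response (31.6%), 5 of 17 of amino acid synthesis and transport (29.4%) and 5 of 13 of the synthetases (38.5%). Of the 237 genes with the motif, 40 (16.9%) were more than 2-fold higher in ER stress and 25 in hypoxia, with a median of -0.12. Over all genes the shares were 9.89% and 10.8%, so the count towards hypoxia was near its share.

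The extracellular matrix showed low values in ER stress. Of 17 collagen genes, all kept, 10 were more than 2-fold higher in hypoxia and 0 in ER stress (median 1.23). The shares over all genes were 10.8% and 9.89%. ER stress was below all other 5 libraries, at any distance, in 16 of the 17. Col3a1 had 1575 TPM in hypoxia, 352 TPM in ER stress and 1479 TPM in control, with 1098 to 1583 TPM in the other stresses (2.16). Col8a1 had 201 and 36.9 TPM (2.42), Col6a1 531 and 121 TPM (2.12), and Col1a1, the most abundant, 3629 and 1740 TPM (1.06). The collagens had 12776 TPM in hypoxia and 11266 TPM in control but 6080 TPM in ER stress.

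The enzymes that modify collagen combined both directions. Of 19 kept genes, 9 were more than 2-fold higher in hypoxia and 1 in ER stress (median 0.95). The hydroxylases Plod2 (203 and 22.3 TPM, 3.13), P4ha2 (500 and 64.6 TPM, 2.93) and P4ha1 (486 and 99.5 TPM, 2.28) were above control in hypoxia, where control had 40.7, 106 and 130 TPM. Plod1 (176 and 42.2 TPM, 2.03) and the lysyl oxidase Loxl2 (266 and 76.5 TPM, 1.78) had 66.0 and 135 TPM in control. P3h4 (217 and 38.8 TPM, 2.45) was near its control level of 246 TPM in hypoxia and low in ER stress. P3h2, a prolyl 3-hydroxylase, was higher in ER stress, with 3.54 and 14.1 TPM (-1.73).

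The cytoskeleton followed the collagens. Of 14 contractile and SRF-dependent genes, 6 were more than 2-fold higher in hypoxia and 0 in ER stress (median 0.88). The shares over all genes were 10.8% and 9.89%. ER stress was below all other 5 libraries, at any distance, in 14 of 14. It was also below them in 32 of 73 nuclear respiratory chain subunits and 13 of 23 DNA replication genes. Myl9, a myosin light chain, had 938 and 205 TPM (2.19), Cnn1, calponin, 307 and 80.0 TPM (1.93), Vcl, vinculin, 308 and 89.6 TPM (1.77), and Tpm1, tropomyosin, 2190 and 672 TPM (1.70). Actb, often taken as a reference gene, had 3071 and 1901 TPM (0.69), and Gapdh, of glycolysis, 6067 and 2105 TPM (1.53). Of 13 fibroblast markers, all kept, 7 were more than 2-fold higher in hypoxia and 0 in ER stress (median 1.01), with a summed level of 20823 TPM in hypoxia, 10998 TPM in ER stress and 18139 TPM in control. Of markers of other cells, Ptprc of leukocytes had 0 TPM in hypoxia and 0.124 TPM in ER stress, Pecam1 of endothelium 0.182 and 0.0646 TPM and Epcam of epithelium 0 in both. The study's methods describe MEFs sorted as negative for CD45, CD11b and F4/80, the products of Ptprc, Itgam and Adgre1. Low values of these genes were therefore selected for and are no separate evidence of purity. Other members of these lists were above the filter: Des, of muscle, had 30.0 and 13.6 TPM (1.09), Krt18, of epithelium, 3.57 and 10.6 TPM (-1.34), Cd68, of macrophages, 6.81 and 5.26 TPM (0.32) and Kdr, of endothelium, 1.92 and 3.84 TPM (-0.73). Their part in the results was not tested.

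Mitosis and DNA replication genes are given side by side, and the difference between these lists was not tested. Of 21 mitosis genes, 8 were more than 2-fold higher in hypoxia and 0 in ER stress (median 0.82). Kif20a had 53.4 and 20.0 TPM (1.38), Bub1 26.6 and 9.90 TPM (1.34) and Ccnb2, cyclin B2, 47.0 and 18.1 TPM (1.33). The list was close to control in hypoxia (median -0.21) and lower in ER stress (median -1.16). Of 23 DNA replication genes, 1 was more than 2-fold higher in hypoxia and 2 in ER stress (median 0.29), below the shares of 10.8% and 9.89% over all genes, and both libraries lay below control by the median (-0.43 and -0.58).

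Most respiratory chain transcripts on the lists were close. The nuclear list leaves out Cox4i2 (29.8 and 0.315 TPM, 4.55), which is counted among the other known HIF targets above. Of 73 nuclear-encoded subunits, 68 were within 2-fold and 5 were higher in hypoxia (median 0.16), below the share of 10.8% over all genes. Ndufv3 of complex I had 267 TPM in hypoxia, 82.5 TPM in ER stress and 101 TPM in control (1.68), and the other 4, Uqcrh (1.31), Ndufb3 (1.25), Cox7b (1.25) and Cox7a2 (1.05), were lower in ER stress than in control. All 13 mitochondrially encoded proteins were within 2-fold, at a median of 0.39. Of 30 genes of cholesterol and fatty acid synthesis, 25 were within 2-fold (median -0.14). The others were 2 higher in hypoxia and 3 in ER stress, near or below the shares of 10.8% and 9.89% over all genes. Mvd, which makes isopentenyl pyrophosphate, was higher in ER stress (16.9 and 61.8 TPM, -1.81) and the desaturase Scd2 higher in hypoxia (439 and 150 TPM, 1.54). The other members past 2-fold were Fdps (-1.07), Fasn (-1.05) and Insig2 (1.33).

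The study asked how fibroblasts alter growth factor expression in stressed surroundings. Of 61 kept growth factors and cytokines, 24 were more than 2-fold higher in hypoxia and 7 in ER stress (median 0.47), beside 10.8% and 9.89% over all genes. In 16 of the 61, ER stress was more than 2-fold below all other 5 libraries, and in 0 was hypoxia more than 2-fold above them. Wisp2, a matricellular protein of the CCN family, had 666 TPM in hypoxia, 53.6 TPM in ER stress and 515 TPM in control (3.61), Ogn, osteoglycin, 299, 34.2 and 211 TPM (3.09), and Vegfd 39.8, 6.20 and 27.6 TPM (2.50). The remaining factors higher in hypoxia were Pdgfd (2.36), Angptl2 (2.28), Tgfb3 (2.22), Gdf10 (2.13), Bmp4 (2.12), Cxcl12 (2.11), Igf1 (1.94), Angpt1 (1.94), Gas6 (1.76), Gdf11 (1.64), Hgf (1.64), Inhbb (1.60), Ptn (1.45), Tgfb2 (1.33), Nov (1.24), Pgf (1.22), Mdk (1.22), Cxcl5 (1.19), Fgf18 (1.17), Fgf7 (1.13) and Il34 (1.08). Of these 24, Il34, a ligand of the CSF1 receptor, was more than 2-fold above control in hypoxia, with 5.71 TPM in hypoxia, 2.18 TPM in ER stress and 1.82 TPM in control.

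The 7 growth factors higher in ER stress were Fgf21, Ereg, Areg, Gdf15, Ccl2, Bdnf and Csf1. The EGF receptor ligand Ereg had 5.74 TPM in hypoxia, 43.5 TPM in ER stress and 16.2 TPM in control (-2.72), and Areg, of the same family, 0.448, 5.33 and 0.532 TPM (-2.13). Csf1, the growth factor of macrophages, had 197 TPM in hypoxia, 399 TPM in ER stress and 377 TPM in control (-1.01), with 318 to 638 TPM in the other 4 stresses. ER stress thus lay next to control and hypoxia was the lowest of the 7 libraries. The same held for the chemokine Ccl2, with 31.1, 84.6 and 64.9 TPM in hypoxia, ER stress and control (-1.41). Bdnf (-1.03) and Gdf15 (-1.47) were likewise past 2-fold.

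Genes more than 2-fold above control in both libraries were 54 of 11558 (0.467%), 44 of them protein-coding. Both differences use the same control library, so a low control value enters both, and in 11 of the 54 genes control was below 1 TPM, with 6 listed at 0. Between the 2 libraries themselves 40 of the 54 were within 2-fold, 6 were higher in hypoxia and 8 higher in ER stress. With the highest of the other 5 libraries in place of control, an alternative chosen after seeing the data, 14 genes were more than 2-fold above it in both hypoxia and ER stress. These 14 were Stc2, Ndrg1, Adm2, Ero1l, Ciart, Mthfd1l, Clcn3, Acot2, Angptl6, Nek1, Kif21b, Hist1h3d, Rny3 and n-R5s197.

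Stc2, a secreted glycoprotein hormone known to respond both to HIF and to ATF4, had nearly the same level in both. It had 58.3 TPM in hypoxia and 57.3 TPM in ER stress (0.02), with 10.5 TPM in control, 11.2 in glucose depletion, 19.0 in glutamine depletion, 8.68 in oxidative stress and 11.7 in osmotic stress. Adm2, a peptide of the calcitonin family, had 42.9 TPM in hypoxia, 67.8 TPM in ER stress and 8.38 TPM in control, with 4.89 to 13.3 TPM in the other 4 stresses. Ciart, a repressor of the circadian clock, had 24, 27.2 and 4.56 TPM in the same order. In all of these the 2 libraries lay above the other 5 without overlap. Ero1l and Ndrg1, given above, were highest in hypoxia and second in ER stress.

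Metabolic enzymes were among the shared genes. Hk2, a hexokinase, had 56.1 TPM in hypoxia, 48.9 TPM in ER stress and 16.2 TPM in control, with up to 36.9 TPM in the other stresses. Gys1, glycogen synthase, had 196, 89.9 and 39.1 TPM. Mthfd1l and Aldh1l2, of mitochondrial one-carbon metabolism, had 56.6, 53.3 and 20.4 TPM and 88.1, 173 and 42.9 TPM, and Lonp1, the protease of the mitochondrial matrix, 156, 204 and 69.8 TPM. Dgat2, which makes triglycerides, had 11, 18.8 and 3.98 TPM. Trib3, a pseudokinase downstream of ATF4 and CHOP, was higher in ER stress, with 71.1, 184 and 30.8 TPM, and Vldlr higher in hypoxia, with 85.9, 34.5 and 15.6 TPM. Mt2, a metallothionein, had 659, 449 and 168 TPM, and Vegfa 275, 170 and 78.6 TPM, but oxidative stress had 1333 TPM of Mt2 and glutamine depletion 402 TPM of Vegfa, so these 2 genes were not highest in hypoxia or ER stress.

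**Figure D5:**
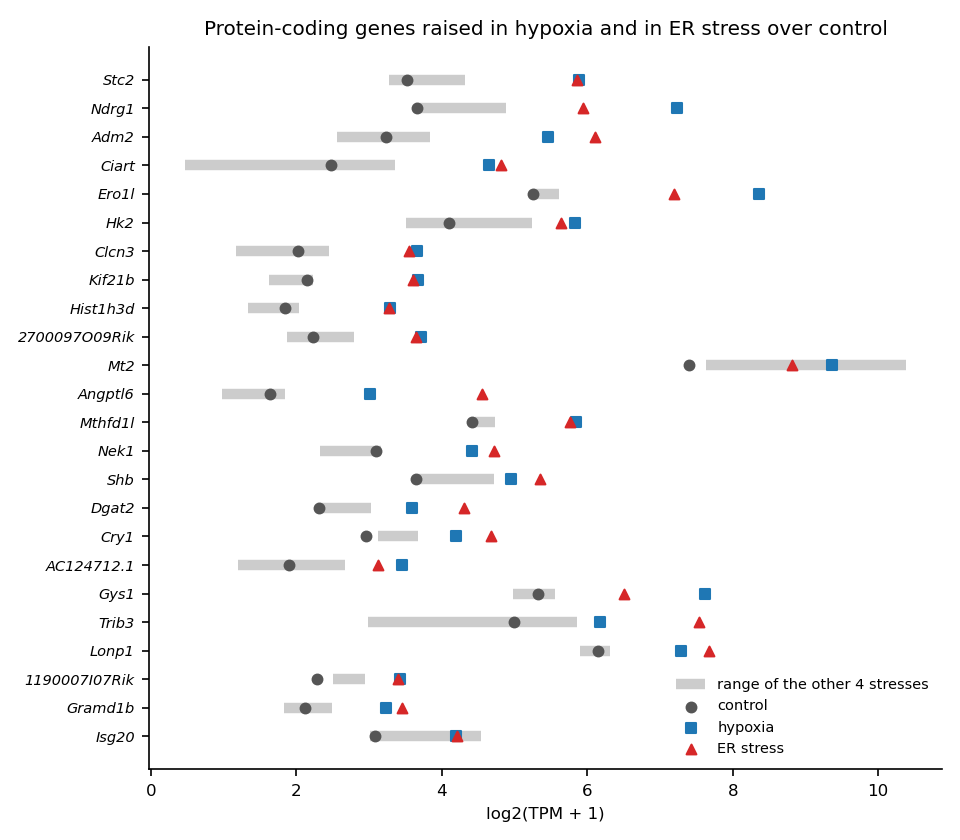
Markers give log2(TPM + 1) in control (grey circle), hypoxia (blue square) and ER stress (red triangle) for the 24 protein-coding genes with the largest smaller rise among those raised in both with at least 2 TPM in control, and grey bars the range of the other 4 stresses. Stc2, Adm2 and Ciart have both libraries close together and above the bar, while Mt2 lies inside it.

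By the size of the smaller rise, 7 of the first 12 genes were noncoding, histone or uncharacterised features with control listed at 0 or below 1 TPM. Rny3, a Y RNA, had 30.1 TPM in hypoxia and 12.2 TPM in ER stress, and n-R5s197, a 5S rRNA, 7.29 and 8.72 TPM, both listed at 0 in the other 5 libraries. 1700047I17Rik2 had 13.2, 24 and 0.585 TPM in hypoxia, ER stress and control, and Hist1h4m 7.69 and 4.93 TPM with 0 in control. AC109138.7 had 5.29 and 6.03 TPM, AC154343.1 5.18 and 5.74 TPM and AC167978.1 3.02 and 11 TPM, all listed at 0 in control. The libraries were made by a protocol for polyadenylated mRNA, which Y RNA and 5S rRNA are not, and these RNAs and histone genes have near-identical copies among which reads can be divided.

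Both libraries were more than 2-fold below control in 34 genes (0.294%), of which 23 were protein-coding. They include Hsd17b7 and Acat2, of sterol metabolism, with 23.9 and 20.7 TPM in hypoxia, 18.9 and 8.39 TPM in ER stress and 54.5 and 45.5 TPM in control. In the other 4 stresses Hsd17b7 had 24.8 to 120 TPM and Acat2 20.6 to 51.0 TPM. Their values in glucose depletion (24.8 and 21.1 TPM) and that of Acat2 in glutamine depletion (20.6 TPM) were close to hypoxia. Galnt2, which starts O-glycosylation, had 55.5, 32.9 and 112 TPM in hypoxia, ER stress and control, the endothelial lipase Lipg 21.7, 17.5 and 45.0 TPM, and Herc3 3.48, 3.96 and 15.7 TPM. Of the 34, 1 gene was more than 2-fold below all other 5 libraries in both, and it was not protein-coding.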

How the data were processed

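The data are 7 RNA-seq libraries of MEFs, of which hypoxia and ER stress were compared. The authors quantified paired reads with Kallisto (0.43.1 in the submitters' processing notes) against Ensembl release 90 cDNA (GRCm38), added up the transcripts per gene and deposited the result as TPM. TPM keep no read counts, so the depth is unknown and no counting interval can be given. A TPM is a share of its library, so genes with a high value lower the others.

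From these TPM, log2(TPM + 1) differences were computed with Python 3.11.15, numpy 2.4.6 and pandas 2.3.3. The study's methods name the same pseudocount and 2-fold threshold. A symbol on several rows with identical values was counted once (69 rows), and 11 symbols stayed on several rows. The symbol rule also left out 12 ordinary genes whose symbols start with Gm. Gene types and positions came from GENCODE M21, with 48 genes unmatched. The members, 34 gene lists and tests were chosen with earlier results of these data known. Named genes are the 3 markers, the 12 largest differences in each direction, the 12 genes with the largest smaller rise over control in both, up to 6 members per list with the largest difference, members past 2-fold against the list's median, members needed for a role, and growth factors past 2-fold. Members named as within 2-fold and the further genes raised or lowered in both were chosen after their values were seen. Steps were tested on simulated data.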

Additional observations from a re-analysis of the deposited data

How the results depend on the processing

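No paired analysis was possible because each condition has 1 library, and for the same reason no replicate could be left out. The counts of genes higher in hypoxia and in ER stress were 1246 and 1143. They were 2431 and 2526 with a 1.5-fold rule, 245 and 154 with a 4-fold rule, 685 and 763 with a pseudocount of 5 TPM, and 771 and 839 with a mean of at least 10 TPM, so which side held more genes turned in 3 of these 4. The other 7 alternatives kept both counts within 1.5 times. The 54 genes raised in both became 92 and 23 with pseudocounts of 0.1 and 5 TPM, 25 with a mean of at least 10 TPM, 214 and 11 with the 1.5-fold and 4-fold rules, and 14 against the highest of the other 5 libraries, a choice made after seeing the data. With glucose depletion as the reference there were 74, and with the mean of the other 5 libraries 53. With any distance outside the range of the other 5 libraries, on the hypoxia side 172 genes had the higher library above, 617 the lower library below, 419 both and 38 neither, and on the ER stress side 685, 59, 372 and 27. The medians of 33 gene lists moved by less than 1.5 times under 2 other pseudocounts and centring. Of 37 named genes none changed sign where it was past 2-fold, and Ndufa4l2 ranged from 5.51 to 9.45 and Derl3 from -7.67 to -5.69 with the pseudocount. In 30 checks of the named genes the difference moved by more than 1.5-fold, and in 81 it did not. Mgarp ranged from 3.06 to 7.15 and Cox4i2 from 2.71 to 6.17, so the order of the largest differences depended on the pseudocount. Centring gave 1356 genes higher in hypoxia and 1015 in ER stress. Protein-coding genes alone were added after seeing the data.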

Other observations

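Over all genes, 10.8% were more than 2-fold higher in hypoxia and 9.89% in ER stress, and the counts of the lists here are read beside these shares. Of the lists, BCL2 family, heat shock, p53 target and autophagy genes had counts near or below them. Of 12 NRF2 targets, 4 were more than 2-fold higher in ER stress and 0 in hypoxia (median -0.50). Txnrd1, thioredoxin reductase, had 109 TPM in hypoxia, 617 TPM in ER stress and 205 TPM in control (-2.49), and Hmox1, heme oxygenase, 497, 1802 and 266 TPM (-1.86), with up to 634 and 6055 TPM in the other 4 stresses. Slc7a11, the cystine transporter (-2.12), and Gclc, of glutathione synthesis (-1.43), were the other 2. Of 18 autophagy genes, 16 were within 2-fold (median -0.26), and the receptor Sqstm1 (p62) had 523 TPM in hypoxia, 1507 TPM in ER stress and 365 TPM in control (-1.52), with Wipi2 (-1.16) the other past 2-fold. Of 24 immediate early and AP-1 genes, 5 were higher in ER stress and 3 in hypoxia (median 0.14). Myc had 51.3, 265 and 56.8 TPM in hypoxia, ER stress and control (-2.35) and Nr4a2 5.46, 32.2 and 4.83 TPM (-2.36), whereas its relative Nr4a1 had 13.2, 4.28 and 22.3 TPM (1.43). Klf4 (-1.21), Ier2 (-1.32) and Dusp6 (-1.18) were the others towards ER stress, and Ier3 (1.22) and Fosl2 (1.09) towards hypoxia.

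Of 16 kept genes of the circadian clock, 4 were more than 2-fold higher in hypoxia and 1, Nfil3, in ER stress (median 0.09). Dbp, an output gene of the clock, had 12.9 TPM in hypoxia, 1.58 TPM in ER stress and 12.7 TPM in control (2.43), Nr1d1 (REV-ERBα) 11.8, 4.63 and 16.1 TPM (1.19), and Bhlhe41 21.1, 6.61 and 7.99 TPM (1.54). Cry1, a repressor of the clock, was above control in both, with 17.4 and 24.7 TPM against 6.79 TPM. Of 15 heat shock genes, 13 were within 2-fold (median 0.13), with Hspd1, the mitochondrial chaperonin, higher in ER stress (304 and 771 TPM, -1.34) and Hspb1 higher in hypoxia (165 and 74.1 TPM, 1.15). Of 14 p53 targets, 11 were within 2-fold (median -0.14), with Plk2 (-1.53) and Aen (-1.16) higher in ER stress and the death receptor Fas, with 18.8 and 4.40 TPM (1.88), higher in hypoxia. Of 12 kept BCL2 family genes, Bok (1.77) was higher in hypoxia and Bid (-1.13) in ER stress (median -0.17). Of 9 kept genes that restrain mTORC1, Ddit4 (1.22) and Sesn3 (1.08) were higher in hypoxia and Trib3 (-1.36) in ER stress (median -0.07). Markers of cells other than fibroblasts were low as whole lists, and the sort named above selected against products of part of the macrophage list. In hypoxia and ER stress, 6 macrophage markers summed to 8.89 and 6.76 TPM, nearly all of it Cd68 (6.81 and 5.26 TPM), 4 endothelial markers to 3.68 and 4.47 TPM, 4 epithelial markers to 3.87 and 11.6 TPM, mostly Krt18 (3.57 and 10.6 TPM), and 4 skeletal muscle markers to 30.3 and 13.7 TPM, nearly all Des (30.0 and 13.6 TPM). The 3 erythroid markers summed to 0 and 0.217 TPM, and none passed the filter.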
